A study of Mus musculus with 8 samples.

Results

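Imprinted genes are transcribed mainly from the copy inherited from a single parent. The genes lie in clusters that share a control region, and a single parental copy of that region is marked by DNA methylation laid down in the egg or the sperm. Many act on growth, through insulin-like growth factor 2 (IGF2) and its receptors, through cell cycle inhibitors or through noncoding RNAs. In mouse fat, Peg3, Mest, Dlk1 and Nnat have been studied in relation to fat cell number and size. The set described here holds 39 genes of 17 clusters, taken by name from a deposited table of 44422 genes because they are imprinted or lie in an imprinted cluster. In the mouse 18 of them are expressed from the maternal copy and 21 from the paternal copy, some only in certain tissues. They took up 41 rows, since Rian and Snrpn were each listed under 2 identifiers.

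RNA was sequenced from inguinal white adipose tissue (iWAT) and brown adipose tissue (BAT) of male C57BL/6 mice aged 10 weeks and kept at 22 °C. WT mice, labelled Flox, carried floxed alleles of the linker histone gene H1.2 without Cre. H1.2AKO mice carried the same alleles with Cre driven by the adiponectin promoter, which is active in adipocytes, so that other cells of the tissue kept the gene. Each of the 4 groups had 2 libraries, and each library was a pool of RNA from several mice (3 in the submitters' notes, fewer in the methods of the paper), so n counts pools. All mice were of an inbred strain, and the reads of the 2 parental copies cannot be told apart in these data. The values are FPKM, fragments scaled to transcript length and library size, and describe the summed RNA of both copies.

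The libraries held 16118634 to 17480325 reads over the listed genes. The deleted gene, listed as Hist1h1c, lay at 23.7 and 24.2 FPKM in WT iWAT and at 2.26 and 1.73 FPKM in H1.2AKO iWAT. In BAT it lay at 36.8 and 43.3 FPKM in WT and at 0.177 and 1.97 FPKM in H1.2AKO. Brown adipocyte markers summed to 6957 to 8711 FPKM in BAT and to 215 to 334 FPKM in iWAT, as the tissue labels imply. Markers of cells other than adipocytes also differed between the tissues. The 6 progenitor and fibroblast markers summed to 293 to 403 FPKM in iWAT and 52.3 to 122 FPKM in BAT, and the 4 lymph node and B cell markers to 185 to 247 FPKM in iWAT and 0.673 to 2.10 FPKM in BAT. Skeletal muscle RNA was uneven across libraries. The 30 muscle genes summed to 242 FPKM in WT iWAT replicate 1 and 175 FPKM in H1.2AKO BAT replicate 1, against 2239 to 5385 FPKM in the other 6. In bulk tissue, fewer cells of a type and less RNA per cell cannot be told apart.

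A promoter of each of 6 members that the results below turn on is printed here, 300 bases from RefSeq on GRCm38.p6. Each runs in the direction of transcription, with 250 bases before a RefSeq start. For Blcap, Mest and Plagl1 that start is not the start of the listed row. Coordinates in brackets are those of the windows. The gene Nnat (chr2:157559828-157560127, + strand) lies within an intron of the gene Blcap (chr2:157566312-157566611, − strand). Nnat differed far more between the tissues than Blcap. Mest (chr6:30737803-30738102, + strand) and Peg3 (chr7:6730370-6730669, − strand) had among the smallest p-values between genotypes. Magel2 (chr7:62376729-62377028, + strand) was read in BAT alone, and Plagl1 (chr10:13090582-13090881, + strand) mostly in iWAT. Capitals mark TGCCGC or its reverse complement GCGGCA, the hexamer that the zinc finger protein ZFP57 binds when it is methylated.
Nnat: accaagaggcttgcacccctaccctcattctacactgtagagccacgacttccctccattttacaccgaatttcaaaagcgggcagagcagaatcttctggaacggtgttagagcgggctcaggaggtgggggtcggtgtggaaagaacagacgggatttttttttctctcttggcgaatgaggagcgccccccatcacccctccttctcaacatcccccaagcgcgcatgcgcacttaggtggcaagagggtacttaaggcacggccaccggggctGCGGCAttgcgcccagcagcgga
Blcap: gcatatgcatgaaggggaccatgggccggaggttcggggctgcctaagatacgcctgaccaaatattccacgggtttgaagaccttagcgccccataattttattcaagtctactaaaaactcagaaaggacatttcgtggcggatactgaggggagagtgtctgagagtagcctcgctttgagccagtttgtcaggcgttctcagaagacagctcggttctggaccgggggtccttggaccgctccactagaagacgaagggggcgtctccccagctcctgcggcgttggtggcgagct
Mest: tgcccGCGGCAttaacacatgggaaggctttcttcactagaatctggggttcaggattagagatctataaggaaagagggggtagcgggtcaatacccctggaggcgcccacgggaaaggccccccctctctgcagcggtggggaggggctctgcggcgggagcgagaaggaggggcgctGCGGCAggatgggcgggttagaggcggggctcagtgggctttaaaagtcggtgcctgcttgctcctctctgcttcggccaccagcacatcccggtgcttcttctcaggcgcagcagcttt
Peg3: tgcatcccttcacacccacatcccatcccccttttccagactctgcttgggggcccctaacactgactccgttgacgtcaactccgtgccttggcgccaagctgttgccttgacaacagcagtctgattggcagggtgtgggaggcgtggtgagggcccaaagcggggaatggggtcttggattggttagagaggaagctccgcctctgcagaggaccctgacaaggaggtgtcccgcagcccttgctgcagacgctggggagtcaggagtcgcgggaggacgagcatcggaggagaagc
Magel2: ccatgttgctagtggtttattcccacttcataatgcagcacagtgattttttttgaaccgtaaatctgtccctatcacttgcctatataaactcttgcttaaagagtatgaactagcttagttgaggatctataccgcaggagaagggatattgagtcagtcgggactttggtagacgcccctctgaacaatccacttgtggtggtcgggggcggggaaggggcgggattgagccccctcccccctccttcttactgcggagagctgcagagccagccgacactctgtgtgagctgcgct
Plagl1: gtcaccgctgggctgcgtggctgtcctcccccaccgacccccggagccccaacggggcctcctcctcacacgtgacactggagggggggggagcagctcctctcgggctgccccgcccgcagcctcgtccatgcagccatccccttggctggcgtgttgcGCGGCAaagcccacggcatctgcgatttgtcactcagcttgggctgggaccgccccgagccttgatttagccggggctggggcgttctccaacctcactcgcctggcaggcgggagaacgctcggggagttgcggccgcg

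Of the 39 members, 32 had a promoter entry in the RefSeq table. The hexamer was in a promoter of 11 of these 32 genes (34.4%), against 13.1% of all 27025 genes with an entry. By promoter, 12 of 48 (25.0%) held it, against 11.6% of 32851. It was in the promoters of Nnat, Mcts2, Mest, Zim1, Snrpn, Snurf, Igf2, Plagl1, Grb10, Commd1 and Meg3, with Snrpn and Snurf sharing the same window. Of the printed windows, that of Mest held it 2 times and those of Blcap, Peg3 and Magel2 had no match. The members' promoters held a median of 13 CpG dinucleotides, against 7 over all promoters, and the window of Plagl1 held 26. The windows of Peg3 and Usp29, which face away from each other, shared 263 bases. A match is a run of letters and not a bound site, and promoters of the same gene overlap.

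Also printed are the mature microRNAs that are cut from the RNA of 3 members, since each host gene appears below. The hairpin of miR-675 lies in an exon of H19 (chr7:142577064-142577147, − strand). Those of miR-335 (chr6:30741299-30741396, + strand) and miR-483 (chr7:142654924-142654996, − strand) lie in introns of Mest and Igf2. Capitals mark the seed, bases 2 to 8. The 6 seeds differ, so no pair shares a target family by its seed.
mmu-miR-675-5p: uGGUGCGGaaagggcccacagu
mmu-miR-675-3p: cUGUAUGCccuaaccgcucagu
mmu-miR-335-5p: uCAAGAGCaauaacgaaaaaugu
mmu-miR-335-3p: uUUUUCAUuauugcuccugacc
mmu-miR-483-5p: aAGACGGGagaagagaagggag
mmu-miR-483-3p: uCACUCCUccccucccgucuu

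Levels spanned from 0 to 495 FPKM. A mean of at least 0.5 FPKM over the 8 libraries was reached by 23 members, 1 row each. Another 15 rows lay above 0 but below that level, and 3 rows (Usp29, Snurf and the patch copy of Rian) were listed at 0 throughout. Dcn, which encodes the collagen-binding proteoglycan decorin, stood highest at 93.6 to 495 FPKM. Nnat (neuronatin, a small membrane protein of the endoplasmic reticulum), Blcap and Ndn (necdin, a growth suppressor of the MAGE family) followed. The members together took 0.210% to 0.255% of the reads in iWAT and 0.0735% to 0.0951% in BAT. Dcn held 53.9% to 58.8% of the members' reads in iWAT and 23.3% to 27.0% in BAT.

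**Figure D1:**
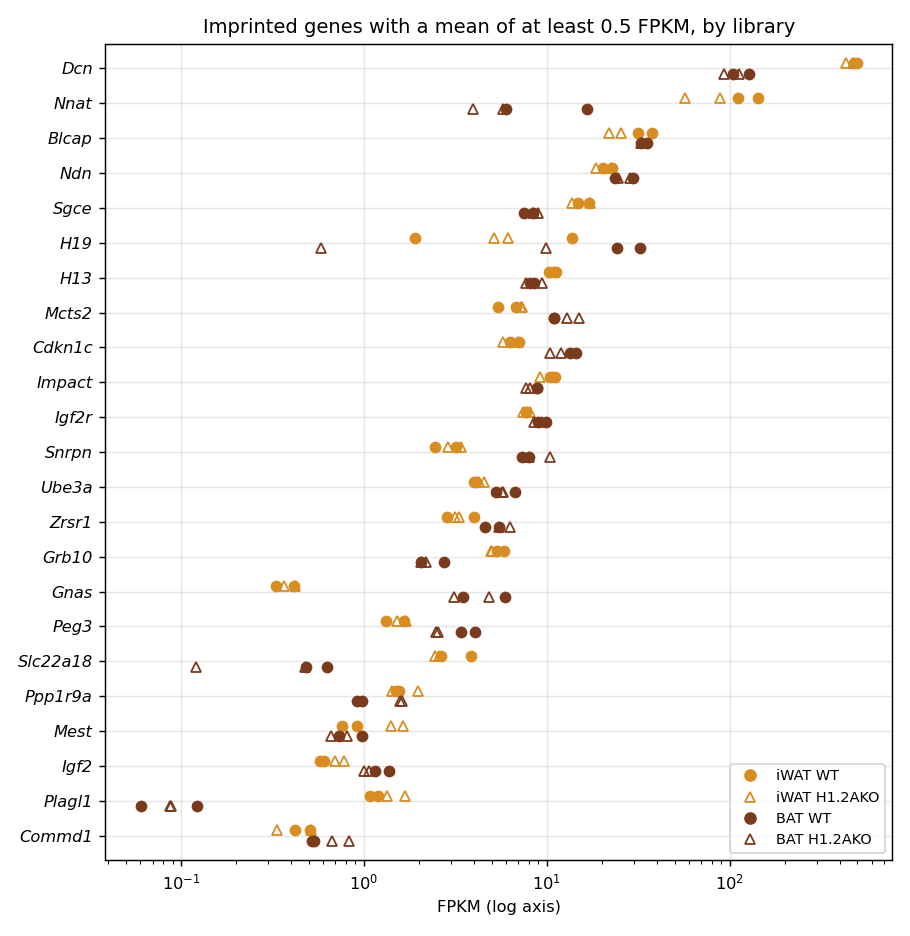
FPKM (log axis) of the 23 imprinted genes with a mean of at least 0.5 FPKM, 1 point per library, coloured by tissue, with filled circles for WT and open triangles for H1.2AKO. Tissue separated the points of most genes, whereas H19 was spread over both tissues. Gnas lay at 0.330 to 0.420 FPKM in iWAT and 3.11 to 5.88 FPKM in BAT, in a row that may not hold all its reads.

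The comparison of BAT with iWAT, averaged over both genotypes with 4 libraries in each tissue, asked how far these genes differ by fat depot. Of the 23 members tested, 11 were higher in BAT and 9 lower at an adjusted p under 0.05 (limma, Benjamini-Hochberg over 14108 genes), and 3 did not pass. Over all genes tested 65.7% were called, 31.7% higher and 34% lower, so a call is common in this contrast. The members' median log2 fold change was 0.24, against -0.02 for all genes. Values of the 2 tissues did not overlap for 19 of the 23 members, against 60.9% of all genes. When every library was instead scaled to the same FPKM sum, the median of all genes shifted to -0.61, and 4 members were higher and 13 lower, against 1500 higher and 9657 lower of all genes. Mitochondrial transcripts took 31.4% to 34.3% of the FPKM in BAT and 11.1% to 13.5% in iWAT, which enters that scaling.

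Nnat and Blcap share a locus on chromosome 2, and Nnat differed far more between the tissues than Blcap. Nnat (157560078 to 157562522, + strand) is expressed from the paternal copy and encodes a regulator of calcium handling in the endoplasmic reticulum. Nnat levels were 112 and 143 FPKM in WT iWAT, 88.6 and 57.1 FPKM in H1.2AKO iWAT, 6.00 and 16.7 FPKM in WT BAT, and 5.80 and 3.95 FPKM in H1.2AKO BAT. Every iWAT library lay above every BAT library, with a log2 fold change of -3.67 (standard error, SE, 0.33, limma adjusted p = 8.8e-05). Blcap (157556362 to 157571274, − strand), maternal in mouse brain and expressed from both copies elsewhere, spans Nnat. It lay at 31.7 and 37.6 FPKM in WT iWAT, 25.5 and 21.8 FPKM in H1.2AKO iWAT, 32.7 and 35.4 FPKM in WT BAT, and 32.7 and 33.4 FPKM in H1.2AKO BAT. Within iWAT the libraries ran in the same order for both genes. The ratio of Nnat to Blcap was 2.62 to 3.80 in the iWAT libraries and 0.119 to 0.471 in the BAT libraries. The small difference of Blcap itself, 0.23 on the log2 scale (SE 0.08, limma adjusted p = 0.0441), was -0.02 within WT alone and -0.44 with equal FPKM sums, so its direction is not settled.

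Gnas, the gene of the stimulatory G protein alpha subunit through which beta-adrenergic receptors act, is expressed from the maternal copy in some tissues. Gnas levels were 0.330 and 0.416 FPKM in WT iWAT, 0.420 and 0.368 FPKM in H1.2AKO iWAT, 5.88 and 3.47 FPKM in WT BAT, and 4.85 and 3.11 FPKM in H1.2AKO BAT. It was higher in every BAT library, by 2.41 on the log2 scale (SE 0.19, limma adjusted p = 5.64e-05). The added 0.5 FPKM holds this value down, since the means were 0.383 FPKM in iWAT and 4.33 FPKM in BAT. The row of Gnas (chromosome 2, 174284320 to 174346744, + strand) rests on 74 to 108 reads in iWAT and 510 to 971 reads in BAT. It spans 5 other listed genes, of which Gm20721 and Nespas lie on the opposite strand. The sources used here do not say whether reads in shared stretches were counted for it. The row may therefore not hold all reads of the gene, and its level is uncertain.

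Among members in the cluster on chromosome 7 that corresponds to the human Prader-Willi and Angelman region, those that could be tested were higher in BAT. Snrpn (59982495 to 60140219, − strand), which encodes a splicing protein and is paternal, lay at 2.46 to 3.41 FPKM in iWAT and 7.31 to 10.4 FPKM in BAT. The tissues did not overlap, and the log2 fold change was 1.36 (SE 0.12, limma adjusted p = 8.61e-05). The second row named Snrpn overlaps it and rested on 3 to 12 reads, so the split between them is uncertain. Ndn, paternal, lay at 18.7 to 22.7 FPKM in iWAT and 23.8 to 29.8 FPKM in BAT (log2 fold change 0.33, limma adjusted p = 0.0310). Ube3a, a ubiquitin ligase that is maternal in neurons alone, lay at 4.01 to 4.52 FPKM in iWAT and 5.28 to 6.67 FPKM in BAT (0.43, limma adjusted p = 0.00414). With equal FPKM sums Ndn was at -0.34 and Ube3a at -0.19, so only Snrpn kept its direction there.

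Magel2 of the same cluster, an intronless paternal gene related to Ndn, was read only in BAT. It had 0 reads in all 4 iWAT libraries, 26 and 42 reads in WT BAT, and 8 reads in each H1.2AKO BAT library. Against a floor of 3 reads per library, its mean in BAT was at least 9.80-fold higher than in iWAT, a limit that covers counting error only. Its level, 0.117 to 0.578 FPKM in BAT, was too low to be tested. Peg12, its paternal neighbour, had 7 to 22 reads in iWAT and 3 to 8 in BAT.

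Among genes that restrain growth or the cell cycle, the direction varied. Cdkn1c, maternal, encodes the cyclin-dependent kinase inhibitor p57Kip2. It lay at 5.74 to 7.08 FPKM in iWAT and 10.4 to 14.5 FPKM in BAT, without overlap (log2 fold change 0.89, SE 0.09, limma adjusted p = 0.000153). Grb10, maternal in most tissues, encodes an adaptor that inhibits insulin and IGF1 receptors. It lay at 4.93 to 5.87 FPKM in iWAT and 2.05 to 2.74 FPKM in BAT, also without overlap (-1.07, SE 0.10, limma adjusted p = 9.68e-05). Plagl1, a paternal zinc finger factor that acts on other imprinted genes, lay at 1.08 to 1.67 FPKM in iWAT and 0.0607 to 0.123 FPKM in BAT. Its log2 fold change, -1.62 (SE 0.12, limma adjusted p = 4.21e-05), is held down by the added 0.5 FPKM, because it rests on 7 to 15 reads in BAT against 182 to 267 in iWAT. Slc22a18, a maternal membrane transporter close to Cdkn1c, fell as well, from 2.45 to 3.86 FPKM in iWAT to 0.120 to 0.631 FPKM in BAT (-1.88, SE 0.18, limma adjusted p = 0.000133). It rests on 3 to 16 reads in BAT against 86 to 133 in iWAT, and the added 0.5 FPKM holds its value down too. Neighbours in the Kcnq1 cluster thus differed in opposite directions.

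Paternal Peg3, a zinc finger protein with Krüppel-type fingers, was higher in BAT. Peg3 levels (chromosome 7, 6703892 to 6730421, − strand) were 1.66 and 1.33 FPKM in WT iWAT, 1.69 and 1.51 FPKM in H1.2AKO iWAT, 4.03 and 3.42 FPKM in WT BAT, and 2.53 and 2.49 FPKM in H1.2AKO BAT. Every BAT library lay above every iWAT library (log2 fold change 0.80, SE 0.10, limma adjusted p = 0.000393). Usp29, a deubiquitinase gene whose promoter window overlaps that of Peg3, was listed at 0 in all 8 libraries. Zim1, the maternal zinc finger gene of the cluster, had at most 7 reads. Those 7 reads were found in each WT BAT library and 0 in each H1.2AKO BAT library. That is at least 2.24-fold against the floor of 3 reads, a limit that covers counting error only and not the spread between pools. Zim1 was too low to be tested.

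Dcn, maternal in the placenta, was the most abundant member and fell in BAT. Its 4 iWAT libraries lay at 433 to 495 FPKM and its 4 BAT libraries at 93.6 to 127 FPKM, a log2 fold change of -2.10 (SE 0.09, limma adjusted p = 5.96e-06). Decorin is made mainly by fibroblasts. The 6 progenitor and fibroblast markers, named above with their sums, were all called lower in BAT with a median of -1.91, and their part in the difference of Dcn was not tested. Paternal Sgce, which encodes a sarcoglycan of the membrane, lay at 13.8 to 17.3 FPKM in iWAT and 7.51 to 8.996 FPKM in BAT (-0.88, SE 0.10, limma adjusted p = 0.000229). Its neighbour Peg10, a paternal gene derived from a retrotransposon, had 16 to 52 reads, too few to be tested. Ppp1r9a (neurabin, an actin-binding scaffold), maternal in the placenta, was at -0.27 with an adjusted p of 0.0630 from limma.

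Igf2, a paternal growth factor of fetal life, was near 1 FPKM and Igf2r, the maternal receptor that clears it, was higher than it. Igf2 levels (chromosome 7, 142650766 to 142666816, − strand) were 0.576 to 0.782 FPKM in iWAT and 1.00 to 1.37 FPKM in BAT, a log2 fold change of 0.50 (SE 0.10, limma adjusted p = 0.00485). Igf2r (chromosome 17, 12682406 to 12769664, − strand) lay at 7.38 to 8.14 FPKM in iWAT and 8.50 to 9.93 FPKM in BAT, 0.24 on the log2 scale (SE 0.07, limma adjusted p = 0.0227). The tissues did not overlap for either gene, but with equal FPKM sums Igf2r was at -0.40 and Igf2 at 0.07. Airn, the paternal noncoding RNA that silences Igf2r in the embryo, had 6 to 14 reads per library and runs across Igf2r on the opposite strand.

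Mcts2 and Zrsr1 are retrogenes that sit inside a host gene, and both were higher in BAT. Mcts2, a paternal copy of Mcts1 within H13, lay at 5.43 to 7.30 FPKM in iWAT and 10.9 to 14.95 FPKM in BAT (log2 fold change 0.84, SE 0.09, limma adjusted p = 0.000186). H13, which encodes the intramembrane protease signal peptide peptidase, lay at 10.3 to 11.3 FPKM in iWAT and 7.65 to 9.46 FPKM in BAT (-0.35, SE 0.08, limma adjusted p = 0.00769). The ratio of Mcts2 to H13 was 0.528 to 0.665 in iWAT and 1.29 to 1.95 in BAT. Both genes lie on the same strand, and how reads in their shared stretch were counted is not given, so the ratio of Mcts2 to H13 is uncertain. Zrsr1, a paternal splicing factor gene within Commd1, lay at 2.86 to 3.99 FPKM in iWAT and 4.60 to 6.30 FPKM in BAT (0.64, SE 0.12, limma adjusted p = 0.00265), and Commd1 was at 0.27 with an adjusted p of 0.106, each BAT library lying above each iWAT library. The ratio of Zrsr1 to Commd1 overlapped between the tissues, at 6.16 to 9.83 in iWAT and 6.66 to 10.5 in BAT. Commd1 rests on 46 to 72 reads and overlaps Gm28048, a protein-coding gene on the same strand listed at 0 FPKM. How shared reads were counted is not given, so the level of Commd1 and this ratio are uncertain. With equal FPKM sums Mcts2 stood at 0.20 and Zrsr1 at 0.03, and neither passed. Reads of Mcts2 and Zrsr1 may be shared with their near-identical parent genes, so their levels are uncertain.

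**Figure D2:**
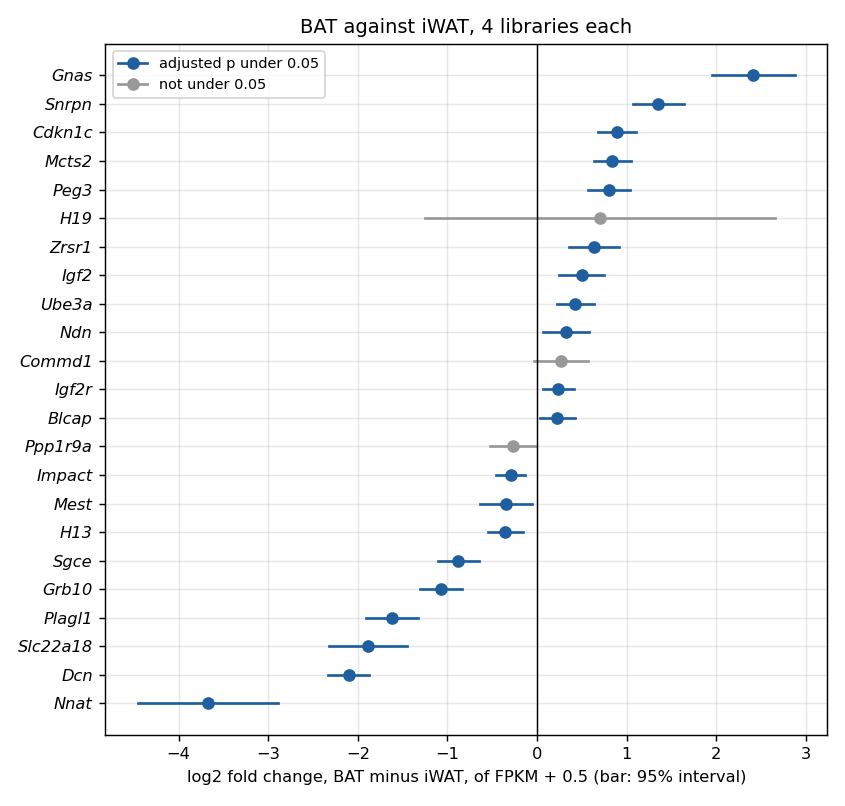
Log2 fold change of FPKM + 0.5 (x axis), BAT minus iWAT, for the 23 imprinted genes tested, with bars for the 95% interval and grey for the 3 genes that did not pass. Gnas at 2.41 and Nnat at -3.67 mark the ends, and with equal FPKM sums Blcap, Igf2r, Ndn, Ube3a and Commd1 changed sign.

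Members were also grouped by the parental copy known to be expressed. All 11 tested paternal members passed, 6 higher and 5 lower in BAT. Of the 12 tested maternal members, 5 were higher, 4 lower and 3 did not pass. Over all genes tested 65.7% were called, 31.7% higher and 34% lower, so calls are common in either group. Within WT alone 5 paternal members were called higher and 3 lower, and 3 and 5 maternal members, beside 53.4% of all genes. Within H1.2AKO alone the paternal counts were 4 and 5 and the maternal counts 4 and 4, beside 53.7% of all genes. Both groups thus held genes higher and genes lower in BAT. The groups are not a split by origin in fat. Dcn and Ppp1r9a are known as maternal in the placenta, Blcap, H13 and Commd1 in brain, Ube3a in neurons and Gnas in some tissues. The smaller calls were Impact (a paternal regulator of translation under starvation) at -0.29 with an adjusted p of 0.00846, and Mest (a paternal membrane protein related to hydrolases) at -0.35 with an adjusted p of 0.0389 from limma. Mest was at 0.02 within WT alone and at -0.71 within H1.2AKO alone.

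H19, the maternal noncoding RNA that is abundant in the embryo and in muscle, had the largest standard error of the 23 tissue values. H19 levels (chromosome 7, 142575529 to 142578143, − strand) were 1.92 and 13.7 FPKM in WT iWAT, 6.18 and 5.17 FPKM in H1.2AKO iWAT, 24.2 and 32.3 FPKM in WT BAT, and 0.581 and 9.95 FPKM in H1.2AKO BAT. The order of the 8 libraries by H19 was the same as their order by the mean level of the 30 skeletal muscle genes. Across these 8 libraries the Spearman coefficient was 1 and the Pearson coefficient 0.953, given as a description since the points share tissue, group and library. Within tissues the Pearson coefficient was 0.953, a value of at least 0.9 being found for 1.84% of all genes tested, with a median of -0.06. Among the other 22 tested members it lay between -0.75 (H13) and 0.56 (Dcn). The tissue difference of H19 was 0.70 on the log2 scale with a standard error of 0.82 (limma adjusted p = 0.479). It was 2.28 within WT and -0.87 within H1.2AKO, so no direction can be given.

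**Figure D3:**
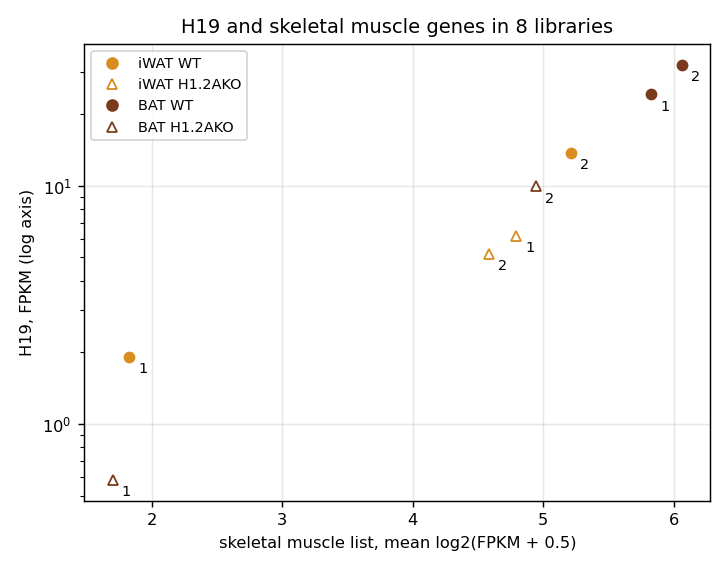
H19 in FPKM (log axis) against the mean log2(FPKM + 0.5) of the skeletal muscle list, 1 numbered point per library by tissue and genotype. H19 rose in the same order as the muscle genes, from 0.581 FPKM in H1.2AKO BAT replicate 1 to 32.3 FPKM in WT BAT replicate 2.

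The comparison of H1.2AKO with WT asked whether loss of the linker histone in adipocytes was accompanied by other levels of imprinted genes. In iWAT 0 of 21 members tested passed an adjusted p of 0.05, as did 0 of 14349 genes (0%), and in BAT 0 of 21 members and 0 of 13190 genes (0%). An unadjusted p under 0.05 was reached by 2 members in iWAT, beside 6.01% of all genes, and by 5 members in BAT, beside 12.4% of all genes. With limma-voom on the recovered reads 0 members passed in either tissue, beside 5 and 3 of all genes. Hist1h1c itself, at -3.30 in iWAT and -4.97 in BAT on the log2 scale, had adjusted p-values of 0.346 and 0.0784 from limma, so 2 pools in a group leave large effects uncalled. The groups did not overlap for 10 members in iWAT (37.2% of all genes) and 11 in BAT (41.3% of all genes). The members' median was 0.01 in iWAT and -0.06 in BAT, against 0.00 and 0.01 for all genes.

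In iWAT the members with the smallest p were Blcap, Mest, Mcts2, Plagl1 and Nnat. Blcap was at 25.5 and 21.8 FPKM in H1.2AKO against 31.7 and 37.6 FPKM in WT, or -0.54 on the log2 scale (95% interval -0.82 to -0.26, limma adjusted p = 0.541). Mest was at 1.40 and 1.63 FPKM in H1.2AKO against 0.913 and 0.756 FPKM in WT, 0.60 on the log2 scale (95% interval 0.21 to 0.99, limma adjusted p = 0.623). For both genes the 2 genotypes did not overlap. The row of Mest also overlaps Copg2, a coatomer gene on the opposite strand with a mean of 7.96 FPKM that was looked up after the values were seen. Nnat was at -0.83 with a 95% interval from -1.93 to 0.28, and its 2 H1.2AKO libraries, at 88.6 and 57.1 FPKM, lay below both WT libraries. Mcts2 at 0.24 and Plagl1 at 0.29 had intervals that held 0.

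In BAT the smallest p belonged to Peg3, Ppp1r9a, Mcts2, H19 and Cdkn1c. Peg3 was at 2.53 and 2.49 FPKM in H1.2AKO against 4.03 and 3.42 FPKM in WT, or -0.49 on the log2 scale (95% interval -0.82 to -0.16, limma adjusted p = 0.273). Ppp1r9a was at 1.58 and 1.61 FPKM in H1.2AKO against 0.923 and 0.980 FPKM in WT, 0.53 on the log2 scale (95% interval 0.16 to 0.90, limma adjusted p = 0.277). Cdkn1c was at 10.4 and 12.0 FPKM in H1.2AKO against 14.5 and 13.5 FPKM in WT (-0.31, limma adjusted p = 0.391). Mcts2 was at 10.9 FPKM in both WT libraries and at 12.9 and 14.95 FPKM in H1.2AKO (0.33, limma adjusted p = 0.361). None of these 4 genes had overlapping genotypes, and their log2 fold changes kept their sign whichever BAT library was left out.

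The largest difference in BAT was that of H19, at -3.08 on the log2 scale (95% interval -5.84 to -0.32, limma adjusted p = 0.362). Skeletal muscle genes moved with it. All 29 of the muscle genes tested had a negative log2 fold change in BAT, with a median of -2.83, and 0 were called. Without H1.2AKO BAT replicate 1, the library with the least muscle RNA, the difference of H19 was -1.44, and with the muscle level as a covariate it was -0.77. In iWAT the value for H19 was 0.07 (95% interval -2.70 to 2.83) and -1.21 without WT iWAT replicate 1. Nnat in BAT was at -0.997 (95% interval -2.10 to 0.11), and at -0.30 without WT BAT replicate 2, the library with 16.7 FPKM.

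**Figure D4:**
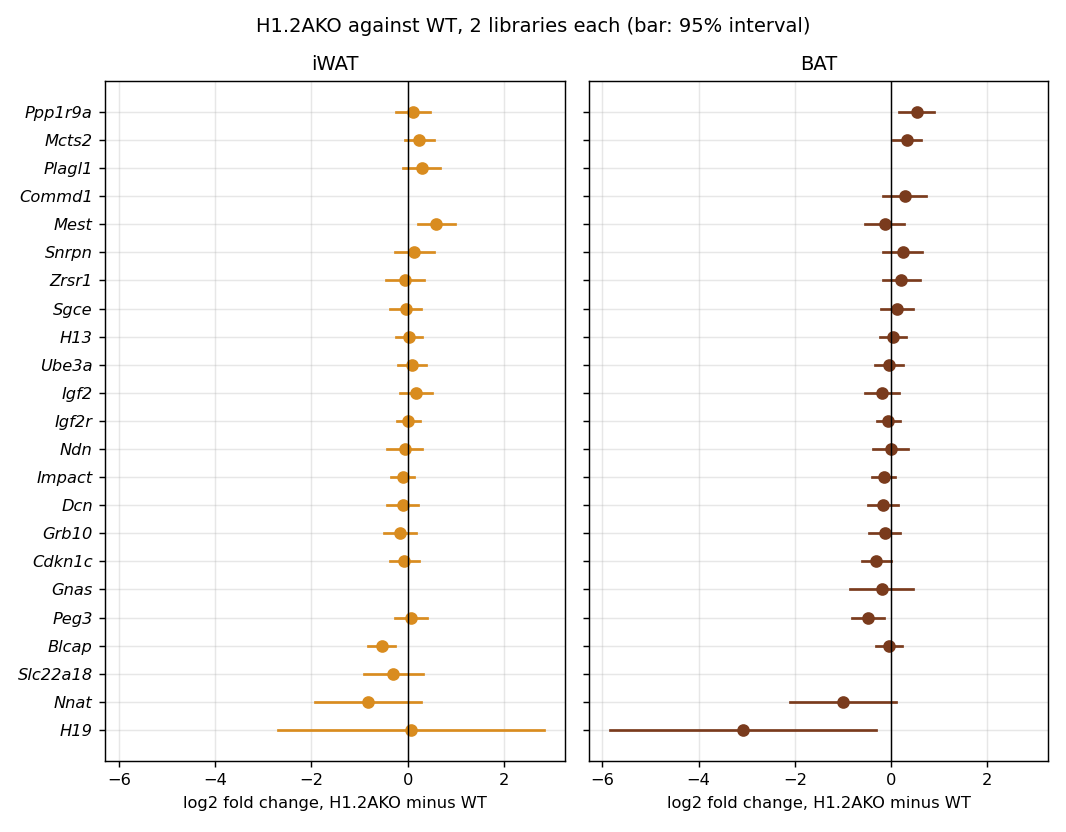
Log2 fold change of FPKM + 0.5, H1.2AKO minus WT, in iWAT (left) and BAT (right), with bars for the 95% interval, for the members tested in either tissue. Most points lie near 0, 0 of the 21 members tested in each tissue passed, and the intervals of H19 and Nnat are the widest.

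The tissue by genotype interaction asked whether the genotype difference itself differed between BAT and iWAT. It passed for 0 of 23 members and 0 of 14108 genes (0%) by limma, and for 0 members by limma-voom, which called 0 genes. At an unadjusted p under 0.05 there were 3 members, beside 5.49% of all genes. Mest was at -0.73 (standard error 0.24, adjusted p = 0.853), Blcap at 0.50 (standard error 0.16, adjusted p = 0.857) and Peg3 at -0.56 (SE 0.20, limma adjusted p = 0.857). A difference between the depots in the effect of H1.2 loss was thus not detectable for these genes with 2 pools in a group.

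Members too low to be tested included the whole Dlk1-Meg3 cluster of chromosome 12. Dlk1, a paternal membrane protein that restrains adipogenesis and marks preadipocytes in culture, had 0 to 3 reads per library. Meg3 (109541001 to 109571726, + strand), the maternal noncoding RNA of the cluster, had 1 to 11 reads. Rian, a maternal host of small nucleolar RNAs, had 12 to 96 reads, and Mirg, a maternal host of microRNAs, 10 to 28. Libraries were made from RNA selected by its poly(A) tail. Phlda2, maternal and best known from the placenta, had 2 reads in all 8 libraries together. Ddc (dopa decarboxylase, paternal in the heart) had 15 to 20 reads in iWAT, 1 and 2 in WT BAT and 0 in both H1.2AKO BAT libraries, at least 3.91-fold lower than in iWAT against the floor of 3 reads. Rasgrf1, a paternal exchange factor for Ras, had 19 to 45 reads in iWAT and 2 to 7 in BAT. Kcnq1, a potassium channel, and Kcnq1ot1, the paternal antisense RNA within it, had 18 to 44 and 19 to 60 reads, and without strand their reads cannot be told apart where they overlap.

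**Figure D5:**
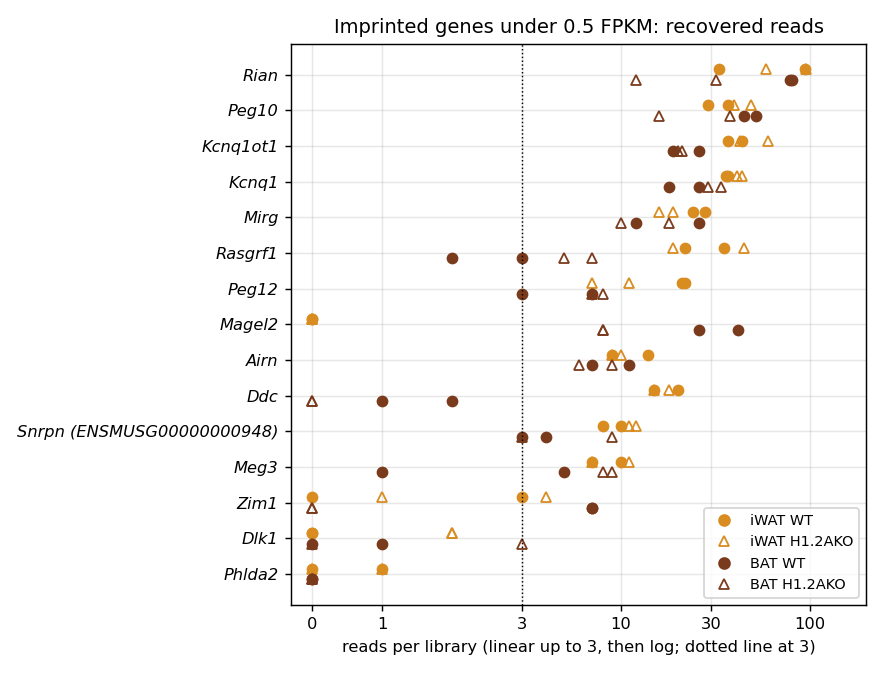
Reads per library (linear to 3, then log) for the 15 imprinted rows above 0 but under 0.5 FPKM, coloured by tissue, with filled circles for WT and open triangles for H1.2AKO, and a dotted line at the floor of 3 reads. Magel2 stands at 0 in iWAT and at 8 to 42 reads in BAT, while Ddc and Rasgrf1 lie lower in BAT.

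Genes outside the set were described by lists. Of 40 other imprinted genes, 19 were tested between tissues, with 6 higher and 6 lower in BAT, a median of -0.12. The 63.2% called lay near the 65.7% called of all genes. Tspan32 (a tetraspanin) was at -3.02, Gpr1 (a chemerin receptor) at -2.32 and Trappc9 (a vesicle trafficking protein) at 0.62. Of 21 genes of IGF signaling, 15 were tested, with 3 higher and 8 lower (73.3% called, beside 31.7% higher and 34% lower of all genes). The lower ones included the binding proteins Igfbp4 at -2.65, Igfbp6 at -2.58 and Igfbp7 at -1.18. With equal FPKM sums these lists held 0 higher and 13 lower genes each. Between genotypes in BAT, 13 of the 15 IGF signaling genes had a negative log2 fold change with a median of -0.28, against 0.01 for all genes, and 0 were called. In the same contrast 5 of 6 progenitor and fibroblast markers were negative with a median of -0.40, and the 29 muscle genes had the median of -2.83 given above. The part of these cells in the IGF list was not tested. The smallest p there belonged to Irs1 (-0.68), Igfals (-0.94) and Irs2 (-1.05), genes of insulin receptor substrates and of a carrier of IGFs in blood.

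Genes listed for imprint control were mostly higher in iWAT. The list mixes genes that maintain imprints with genes that set DNA methylation or remove it, such as the Tet genes. Of 24 on the list 21 were tested, and 1 was higher and 14 lower in BAT, with a median of -0.32 against -0.02 for all genes. The 71.4% called compares with 65.7% of all genes, of which 34% were lower. Smchd1, a chromatin protein of the inactive X and of imprinted clusters, was at -0.81, the maintenance methyltransferase Dnmt1 at -1.04, and Zfp445, a zinc finger protein that protects imprints, at -0.67. The 2 macrophage markers measured summed to 55.1 to 75.8 FPKM in iWAT and 13.6 to 20.8 FPKM in BAT, and the B cell markers named above were also higher in iWAT, and their part in these differences was not tested. Zfp57, the reader of the hexamer printed above, was named after its values were seen and lay at 0.264 to 0.564 FPKM. Between genotypes 0 of these genes passed in either tissue.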

How the data were processed

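RNA of iWAT and BAT was selected by poly-T beads and sequenced and analysed by a company. The deposited table held 1 FPKM value for each gene in each library. The submitters' notes name HISAT2 2.0.5, mm10 and GRCm38.p6. Not given in the sources used here were the counter, the annotation release, the strand setting and the program that made the FPKM. Of the 41 rows of the members, 24 overlap another listed gene.

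FPKM multiplied by gene length came to whole reads for 100% of values above 0 (tolerance 0.01). The denominators behind the deposited FPKM were 1.23 to 1.33 times the summed reads in iWAT and 0.873 to 0.955 times in BAT, and median-ratio factors lay between 0.990 and 1.03.

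With R 4.3.3 and limma 3.58.1, log2(FPKM + 0.5) was fitted with one mean per tissue and genotype over 8 libraries (4 residual and 2.59 prior degrees of freedom, trended empirical Bayes). Genes averaging 0.5 FPKM or more (in the 4 libraries of the tissue between genotypes, otherwise in all 8) were tested, with Benjamini-Hochberg adjustment within a contrast and a threshold of 0.05. P-values measure the spread between these pools, which the submitters call biological replicates. An exact permutation test of 2 against 2 cannot go below 0.333. Printed 95% intervals are those of the limma fit, and floors of 3 reads cover counting error only. The fit was tested on simulated data.

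All 39 members could be named, with the called members of a contrast, the 5 smallest p between genotypes and 3 genes of each other list. Members and lists were chosen with earlier results of these data known. Alternatives were pseudocounts, filters, scalings, a replicate block, limma-voom, a muscle covariate, robust moderation, single tissues or genotypes and each library left out. Sequences are from RefSeq. Figures were drawn with matplotlib 3.10.9.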

Additional observations from a re-analysis of the deposited data

How the results depend on the processing

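The total of members called in each comparison stayed within 1.5 times of that reported under every alternative run, and 0 members were called between genotypes or for the interaction in any. Between tissues the count was 17 with equal FPKM sums, where the split moved from 11 higher and 9 lower to 4 and 13, 22 with limma-voom and, with each library left out, 16 to 19. With the replicate block it was 19 between tissues and 0 in the other comparisons, and the block changed no other call than that of Blcap. The sources used here do not say whether iWAT and BAT pools of the same number came from the same mice, so that comparison may be paired. Deviations of same-numbered pools correlated at -0.14 between the iWAT groups and at -0.02 to 0.28 otherwise. With 2 pools in a group these values cannot settle whether the pools are related. A crossed pairing in iWAT, chosen after seeing the data, gave 20 members between tissues and 0 otherwise. Of the 23 tissue values, 11 kept their direction and side of the threshold throughout. Directions that turned with equal FPKM sums were those of Blcap (-0.44), Ndn (-0.34), Igf2r (-0.40), Ube3a (-0.19) and Commd1 (-0.084). Within WT alone Blcap (-0.019) and Mest (0.021) turned, and within H1.2AKO alone H19 (-0.87). The tissue value of H19 was -0.12 without BAT H1.2AKO replicate 2. In iWAT the genotype value of H19 was -0.96 with the muscle covariate, and with each library left out it lay between -1.21 (without WT replicate 1) and 1.35 (without WT replicate 2), with -0.05 without H1.2AKO replicate 1. The cause was not tested. A call on a single gene was lost in 37 pairings of a gene with an alternative and gained in 5. Leaving out a library left its group with 1, whose spread was taken to equal that of the other groups. At this depth 15 rows above 0 were too low to test.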
